A study of Cricetulus griseus with 9 samples.

Results

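The mitochondrial respiratory chain was followed through 55 nuclear genes: 33 of complex I, 4 of complex II, 7 of complex III, 10 of complex IV, and cytochrome c, the soluble carrier between the last pair of complexes. The genes were listed by function, as mouse Ensembl identifiers with their mouse symbols. Of these 55, 42 were among the 15557 genes of the deposited table and 13 were not. One of the 42, Ndufb4, a complex I accessory subunit, was listed at 0 in all 9 libraries. It has 3 models on 2 scaffolds, and whether the 0 means that the gene was not expressed was not tested. The other 41 passed the filter of a mean of at least 1 FPKM and were tested. The 13 genes not analysed here were 9 complex I accessory subunits (Ndufv3, Ndufa1, Ndufb2, Ndufb3, Ndufb6, Ndufb8, Ndufb9, Ndufc1 and Ndufc2), Uqcrfs1 and Uqcrq of complex III, and Cox6c and Cox7c of complex IV.

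The RNA came from CHO-K1, an established Chinese hamster ovary cell line, 48 h after lipid transfection. Of the 9 libraries, 3 followed anti-miR-29a, an inhibitor said by the submitters to act on both family members. A further 3 followed pre-miR-29a and 3 followed pre-miR-29b-1, precursor RNAs meant to raise the microRNA in their name. All groups received a small RNA and the same transfection reagent. Cells without a small RNA or with a control RNA were not analysed here, so each contrast with anti-miR-29a sets a precursor against an inhibitor. The level of miR-29 itself was not examined here. Whether replicate libraries stem from different cultures is not stated, and the p-values therefore reflect how far these libraries vary, and that variation may be technical. If each molecule was transfected in its own experiment, which the series text does not settle, group and experiment cannot be told apart here.

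The respiratory chain passes electrons to oxygen and pumps protons across the inner mitochondrial membrane. Complex I takes electrons from NADH and complex II takes them from succinate. Complex III hands them to cytochrome c, and complex IV passes them to oxygen. Complexes I, III and IV combine subunits encoded in the nucleus with subunits encoded in mitochondrial DNA, while complex II is wholly nuclear. MicroRNAs of the miR-29 family pair with target mRNAs through a shared seed and lower their level or their translation, and collagens are their best known targets.

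Most of these respiratory chain transcripts differed little between either pre-miR and anti-miR-29a, and 2 complex I transcripts stood apart from the rest. Ndufv1 and Ndufa6 were at 0.503 to 0.615 times their anti-miR-29a level with either pre-miR. Each of the other 39 tested members had a log2 fold change between -0.46 and 0.43 in both contrasts. In each contrast, 2 of 41 members were thus called lower by at least 1.5-fold (limma, adjusted p under 0.05). Of all 9504 tested genes, 10.3% were lower by as much after pre-miR-29b-1 and 12.1% after pre-miR-29a. Falls of this size were therefore no more frequent among the members than among all tested genes. With pre-miR-29b-1, 6 of 41 members were higher and 10 lower than with anti-miR-29a, so that 39.0% were called, against 55.2% of all 9504 tested genes (limma, adjusted p under 0.05). With pre-miR-29a, 10 were higher and 5 lower, or 36.6% of members against 58.4% of all tested genes. Libraries did not overlap between groups for 20 members, or 48.8%, with pre-miR-29b-1 (67.6% of all tested genes) and for 16 members, or 39.0%, with pre-miR-29a (62.2%). Since both contrasts use the same anti-miR-29a libraries, a member called in both is not counted as repeated evidence. In RNA from whole cultures, a lower level in every cell and a loss from part of the cells cannot be told apart.

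**Figure D1:**
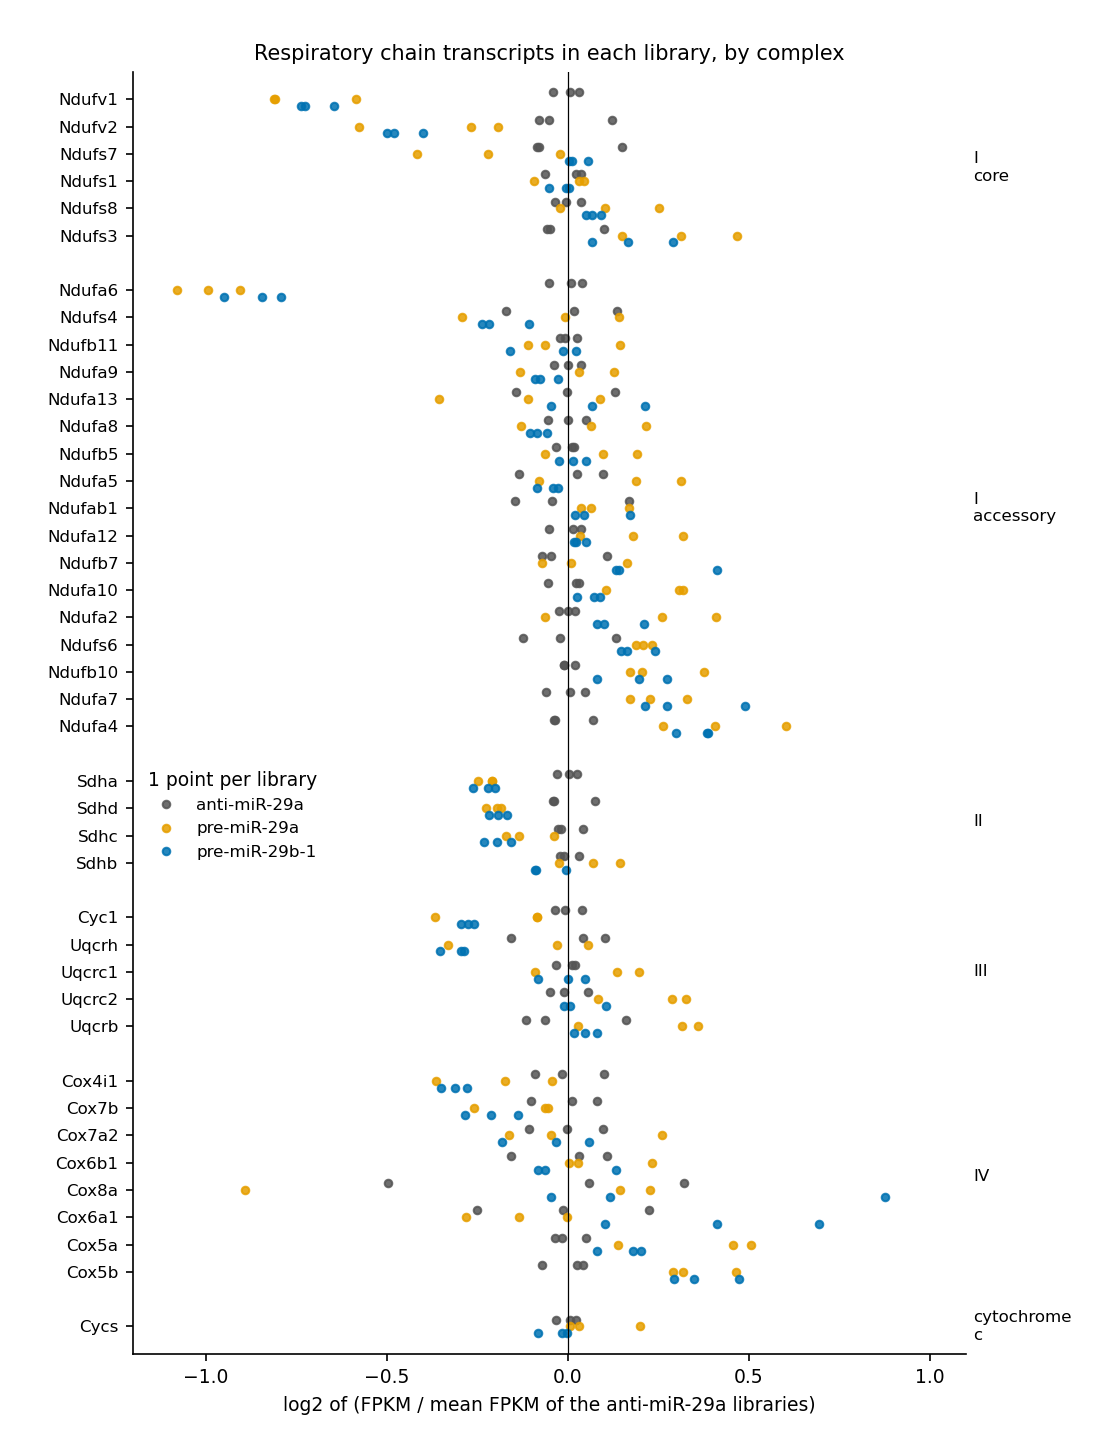
The log2 ratio of each library's FPKM to the mean of the anti-miR-29a libraries is plotted for the 41 tested members, sorted within complexes, with 1 point per library. Ndufv1 and Ndufa6 have all 6 pre-miR libraries well to the left of the 3 anti-miR-29a libraries, most other members lie near 0, and Cox8a is the most widely scattered.

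The core subunits of complex I, of which 6 are described, carry its flavin, its iron-sulfur clusters and the site that binds ubiquinone. Ndufv1 and Ndufv2 were lower with either pre-miR. Of the other 4, pre-miR-29a gave 1 higher (Ndufs3) and pre-miR-29b-1 gave 0. The background for lower calls was 29.4% of all tested genes after pre-miR-29b-1 and 30.9% after pre-miR-29a. Of these 6, Ndufv1 was lower by at least 1.5-fold in both contrasts, where 10.3% and 12.1% of all tested genes were lower by as much.

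Ndufv1 (ENSMUSG00000037916) encodes the flavin-binding subunit to which NADH delivers its electrons. Its levels were 295.9, 286.5 and 301.1 FPKM after anti-miR-29a, 168.1, 196.5 and 167.9 FPKM after pre-miR-29a, and 176.9, 178.1 and 188.4 FPKM after pre-miR-29b-1. The groups given a pre-miR overlapped each other and neither overlapped the anti-miR-29a group. The log2 fold change was -0.70 (SE 0.065, limma adjusted p 1.3e-05) after pre-miR-29b-1 and -0.73 (SE 0.065, limma adjusted p 8.43e-06) after pre-miR-29a. Among all tested genes, 744 and 848 had a more negative change in these contrasts.

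Ndufv2 (ENSMUSG00000024099), the iron-sulfur partner of Ndufv1 at the NADH end, was lower by a smaller factor. It stood at 651.1, 747.9 and 662.9 FPKM after anti-miR-29a, at 460.6, 601.1 and 571.7 FPKM after pre-miR-29a and at 486.7, 493.3 and 520.9 FPKM after pre-miR-29b-1. The log2 fold change was -0.46 (SE 0.097, limma adjusted p 0.00278) after pre-miR-29b-1 and -0.34 (SE 0.097, limma adjusted p 0.012) after pre-miR-29a.

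Of the other 4, none was called lower. Ndufs1, the large iron-sulfur subunit and the complex I member with the smallest mean change, held 126.6, 119.3 and 128.0 FPKM after anti-miR-29a. It held 117.0, 127.3 and 128.7 FPKM after pre-miR-29a and 124.2, 124.9 and 120.2 FPKM after pre-miR-29b-1, so that the groups overlapped throughout. The 95% interval of its log2 fold change ran from -0.13 to 0.098 with pre-miR-29b-1 and from -0.12 to 0.11 with pre-miR-29a. Ndufs3, a subunit of the arm that reaches into the matrix, rose with pre-miR-29a to 270 ± 29.8 from 217 ± 13.5 FPKM (SD, n = 3), and its log2 fold change with pre-miR-29b-1 was 0.18 (limma adjusted p 0.113). Ndufs7 and Ndufs8 carry iron-sulfur clusters along the path to ubiquinone, and neither passed the test. Ndufs7 stood at 186 ± 17.7 FPKM after anti-miR-29a, 160 ± 21.9 after pre-miR-29a and 189 ± 3.89 after pre-miR-29b-1 (SD, n = 3). Its log2 fold change after pre-miR-29a was -0.21 (limma adjusted p 0.0795), and it was called lower without pre-miR-29a replicate 2 (limma adjusted p 0.0126) and with array weights (limma adjusted p 0.0027).

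**Figure D2:**
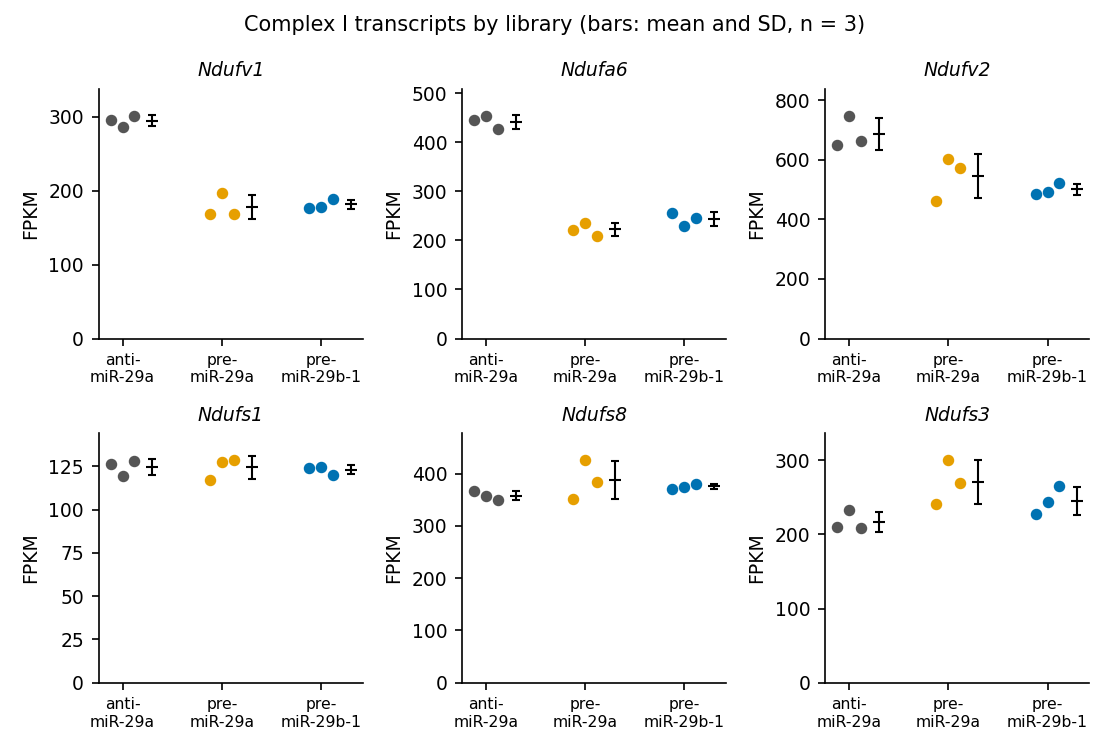
FPKM of 6 complex I transcripts are shown by group, with 1 point per library and bars for the mean and SD of 3 libraries, on axes that start at 0. Ndufv1 and Ndufa6 separate the pre-miR groups from anti-miR-29a without overlap, Ndufv2 does so by less, Ndufs1 and Ndufs8, called in neither contrast, stay near their anti-miR-29a level, and Ndufs3 is called higher with pre-miR-29a.

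Ndufv1 and Ndufa6 lay on separate scaffolds of the CriGri_1.0 assembly. Ndufv1 has 10 coding exons on JH001218 from 114295 to 119658, minus strand. The core gene Ndufs8, 93931 bases away on the same strand, from 17779 to 20363, had log2 fold changes of 0.070 and 0.11, neither called. This pair is also close together in the RefSeq annotation of the newer assembly CriGri-PICRH-1.0. Ndufa6 has 3 coding exons on JH001010 from 587081 to 591478, plus strand. Each of these 3 genes has a single model that shares no exon bases with another gene.

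Among the 17 tested members listed as accessory subunits of complex I, Ndufa6 was the single lower gene. Accessory subunits surround the core and are needed for its assembly and stability. With pre-miR-29b-1, 4 accessory subunits were higher, 1 lower and 12 not called. With pre-miR-29a, 6 were higher, 1 lower and 10 not called. Of these 6, Ndufa12 (log2 fold change 0.18, limma adjusted p 0.0446) had libraries that overlapped between the groups. It was called in 10 of 22 fits. The background for higher calls was 25.8% of all tested genes after pre-miR-29b-1 and 27.5% after pre-miR-29a.

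Ndufa6 (ENSMUSG00000022450) encodes a small subunit of the LYR motif family that binds the mitochondrial acyl carrier protein Ndufab1. Its levels were 444.7, 453.9 and 426.2 FPKM after anti-miR-29a. With pre-miR-29a they were 221.7, 235.7 and 209.1 FPKM, and with pre-miR-29b-1 they were 255.3, 228.7 and 246.1 FPKM. No pre-miR library came near the lowest anti-miR-29a library. The log2 fold change was -0.99 (SE 0.060, limma adjusted p 6.71e-07) with pre-miR-29a and -0.86 (SE 0.060, limma adjusted p 2.08e-06) with pre-miR-29b-1. Ndufab1 itself stood at 317 ± 35.8 FPKM after anti-miR-29a, 338 ± 16.6 with pre-miR-29a and 336 ± 19.1 with pre-miR-29b-1 (SD, n = 3), and passed the test in neither contrast.

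Ndufa4, Ndufa7, Ndufb10 and Ndufs6 rose in both contrasts. Ndufa4, first described in complex I and now placed in complex IV, is counted with complex I throughout, as listed. It held 1806.7, 1947.4 and 1809.9 FPKM after anti-miR-29a. It held 2227.1, 2818.2 and 2459.3 FPKM after pre-miR-29a and 2284.2, 2425.2 and 2421.2 FPKM after pre-miR-29b-1. The libraries did not overlap, and the log2 fold changes were 0.43 (SE 0.088, limma adjusted p 0.00212) and 0.36 (SE 0.088, limma adjusted p 0.00614).

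Ndufa7 stood at 327.3, 337.1 and 312.8 FPKM after anti-miR-29a, at 366.8, 409.5 and 381.5 FPKM after pre-miR-29a, and at 457.9, 377.8 and 394.4 FPKM after pre-miR-29b-1. Its groups did not overlap the anti-miR-29a group. With pre-miR-29a its log2 fold change was 0.24 (limma adjusted p 0.0188), and the call was lost without anti-miR-29a replicate 3 (limma adjusted p 0.0699) or without pre-miR-29a replicate 2 (limma adjusted p 0.0652). With pre-miR-29b-1 it was 0.33 (limma adjusted p 0.00444).

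Ndufb10, a subunit of the membrane arm, stood at 293.9, 288.2 and 287.9 FPKM after anti-miR-29a, at 326.8, 376.7 and 334.2 FPKM after pre-miR-29a, and at 351.0, 307.0 and 332.5 FPKM after pre-miR-29b-1. Its log2 fold change was 0.25 (limma adjusted p 0.0088) with pre-miR-29a. With pre-miR-29b-1 it was 0.18 (limma adjusted p 0.0383), and the call was lost when any 1 library of the groups compared except pre-miR-29b-1 replicate 2 was left out, with adjusted p of 0.0683 to 0.137 (limma). Ndufs6, the least abundant tested member, stood at 35.3 ± 3.19, 40.9 ± 0.617 and 40.2 ± 1.41 FPKM (SD, n = 3) with anti-miR-29a, pre-miR-29a and pre-miR-29b-1. Its log2 fold change was 0.21 (limma adjusted p 0.0191) after pre-miR-29a and 0.18 (limma adjusted p 0.035) after pre-miR-29b-1. The call after pre-miR-29b-1 was lost when any 1 library of the groups compared except anti-miR-29a replicate 2 was left out, with adjusted p of 0.0558 to 0.139 (limma). The call after pre-miR-29a was lost without anti-miR-29a replicate 1 or 3 or pre-miR-29a replicate 3, at adjusted p of 0.0525, 0.0799 and 0.0561 (limma). The SD of its libraries within a group, 0.079 on the log2(FPKM + 1) scale, was below the 0.14 that counting error alone would give. The 348 coding bases of the Ndufs6 model lie on JH000052 from 3582255 to 3582603, almost without a gap. Its level and its rise may therefore include reads from copies elsewhere in the genome.

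Within each library, both lowered transcripts also changed their place relative to the rest of complex I, a comparison that 1 scaling factor per library cannot alter. Ndufv1 stood at 0.929 ± 0.062 times the median FPKM of the 21 other complex I members described with anti-miR-29a (SD, n = 3). The ratio was 0.513 ± 0.0096 with pre-miR-29a and 0.537 ± 0.038 with pre-miR-29b-1. For Ndufa6 it was 1.39 ± 0.045, 0.643 ± 0.030 and 0.720 ± 0.017 in the same order. Ndufa6 thus passed from above that median to below it in all 6 pre-miR libraries. Both members were chosen for this by their fold change, so the ratios are a description.

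Complex II, succinate dehydrogenase, links the chain to the citric acid cycle, and all 4 of its genes were tested. Its summed level was 1912.3, 1978.1 and 1905.9 FPKM after anti-miR-29a, 1729.2, 1830.8 and 1764.2 FPKM after pre-miR-29a, and 1685.4, 1700.2 and 1756.7 FPKM after pre-miR-29b-1. Every pre-miR library was thus below every anti-miR-29a library. With pre-miR-29b-1, 3 of the 4 genes were lower, where 29.4% of all tested genes were, and with pre-miR-29a 2 were, where 30.9% of all tested genes were.

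Sdha (ENSMUSG00000021577), the flavoprotein that oxidises succinate, held 436.9, 420.3 and 430.6 FPKM after anti-miR-29a, 361.6, 371.1 and 371.8 FPKM after pre-miR-29a, and 358.5, 368.3 and 373.4 FPKM after pre-miR-29b-1. The shift was small and the libraries of a group were close together, with a spread within groups of 0.027 on the log2 scale, the lowest of the 41 members. Its log2 fold changes were -0.22 (SE 0.043, limma adjusted p 0.00146) with pre-miR-29a and -0.23 (SE 0.043, limma adjusted p 0.00139) with pre-miR-29b-1.

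Sdhd, a membrane anchor, held 533.8, 577.8 and 533.0 FPKM after anti-miR-29a, 482.6, 479.2 and 469.2 FPKM after pre-miR-29a, and 479.8, 471.4 and 488.6 FPKM after pre-miR-29b-1. It was lower in both contrasts, by -0.20 (limma adjusted p 0.00575) and -0.19 (limma adjusted p 0.00788) on the log2 scale. Sdhc, the other anchor, held 558.6, 586.1 and 562.2 FPKM after anti-miR-29a, 505.9, 554.4 and 518.1 FPKM after pre-miR-29a, and 484.6, 497.3 and 510.2 FPKM after pre-miR-29b-1. It was called with pre-miR-29b-1 (log2 fold change -0.19, limma adjusted p 0.00976) and had an adjusted p of 0.0845 (limma) with pre-miR-29a. The lower calls with pre-miR-29b-1 ended after quantile normalization for both anchors, at adjusted p of 0.199 for Sdhd and 0.105 for Sdhc (limma).

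Sdhb, the iron-sulfur subunit, had the smallest mean change of the complex. It held 382.9, 393.9 and 380.1 FPKM after anti-miR-29a, 379.1, 426.1 and 405.1 FPKM after pre-miR-29a, and 362.5, 363.2 and 384.4 FPKM after pre-miR-29b-1. Its groups overlapped, and the 95% intervals of its log2 fold change were -0.18 to 0.061 after pre-miR-29b-1 and -0.057 to 0.18 after pre-miR-29a.

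**Figure D3:**
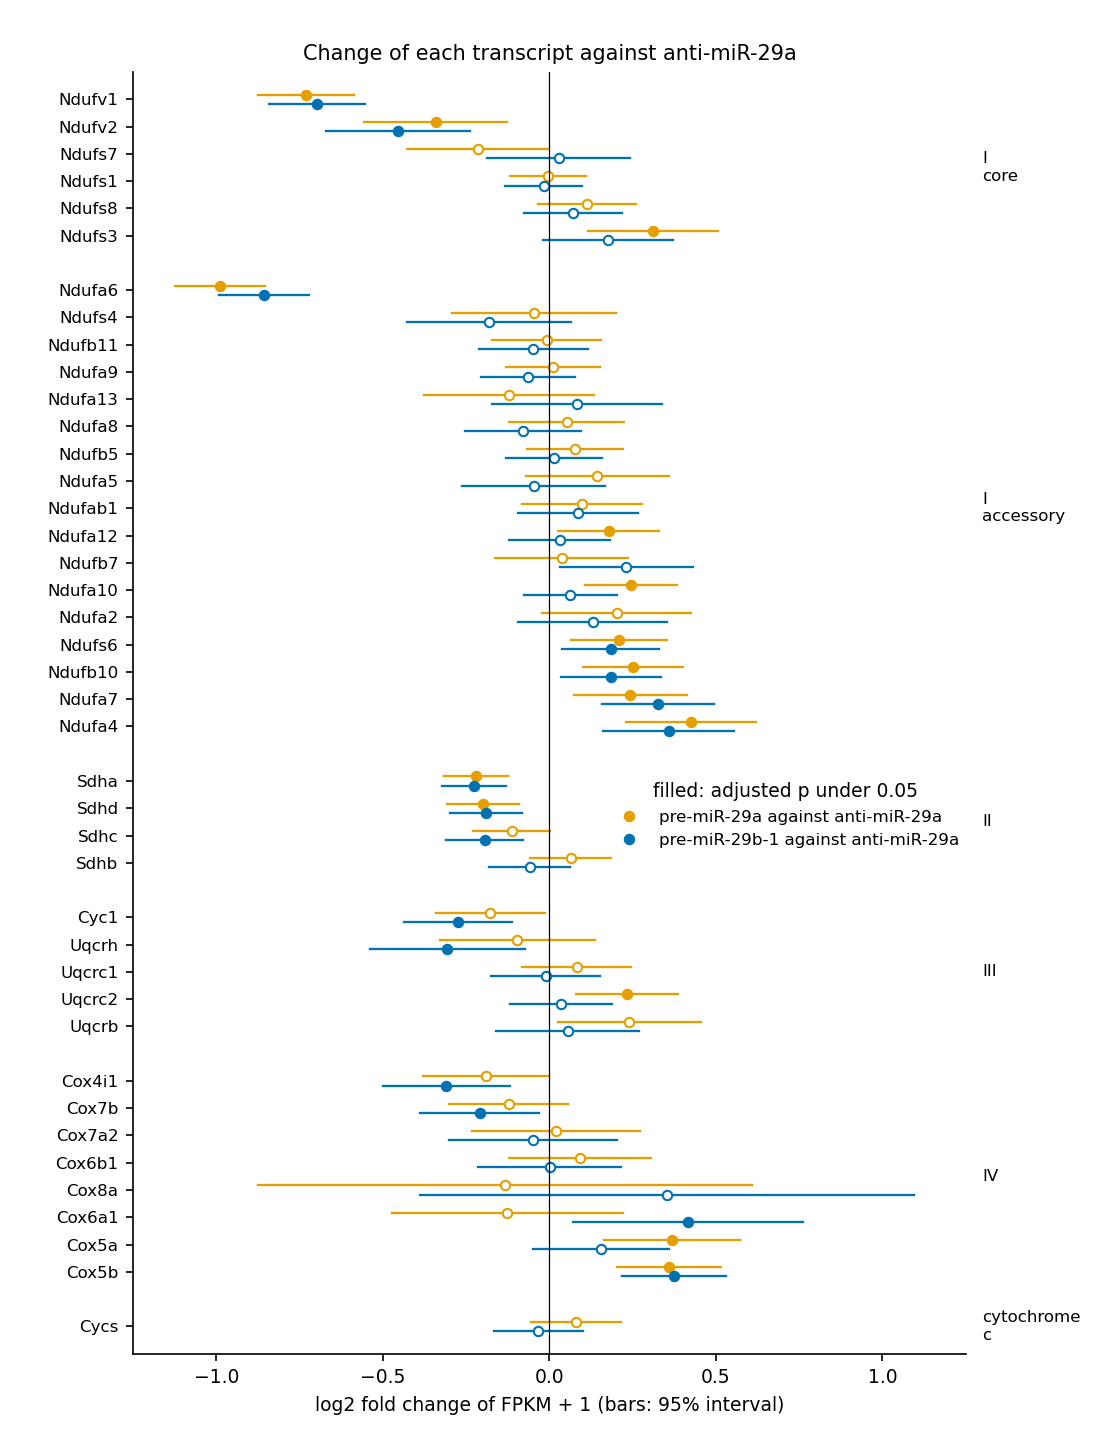
Log2 fold changes of FPKM + 1 against anti-miR-29a are drawn for the 41 tested members, with 95% intervals from limma and filled points for an adjusted p under 0.05. Ndufv1 and Ndufa6 at the far left are the members with changes beyond 1.5-fold, and Cox8a has the widest intervals; both contrasts use the same 3 anti-miR-29a libraries.

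Complex III, which oxidises ubiquinol and reduces cytochrome c, had 5 tested members. Cyc1, its cytochrome c1 subunit, held 369.5, 381.5 and 362.7 FPKM after anti-miR-29a, 287.9, 350.2 and 350.0 FPKM after pre-miR-29a, and 302.4, 307.1 and 310.2 FPKM after pre-miR-29b-1. All pre-miR libraries lay below the anti-miR-29a libraries, and pre-miR-29a replicate 1 was the lowest of the 9. The log2 fold change was -0.28 (SE 0.073, limma adjusted p 0.00936) after pre-miR-29b-1 and -0.18 (SE 0.073, limma adjusted p 0.0592) after pre-miR-29a. Without pre-miR-29a replicate 2 or 3 the latter contrast was called, at adjusted p of 0.0348 and 0.0384 (limma).

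Uqcrh, a small acidic subunit next to cytochrome c1, was lower with pre-miR-29b-1, at 1370 ± 34.7 against 1700 ± 157 FPKM (SD, n = 3; log2 fold change -0.31, limma adjusted p 0.0294). That call was lost when any 1 library of the groups compared except anti-miR-29a replicate 1 was left out, with adjusted p of 0.058 to 0.102 (limma). Uqcrc1 and Uqcrc2 are the large core proteins of the complex. Uqcrc1 held 420.3, 422.8 and 407.8 FPKM after anti-miR-29a, 391.8, 478.5 and 458.1 FPKM after pre-miR-29a and 393.7, 417.7 and 430.9 FPKM after pre-miR-29b-1, with overlap throughout. Uqcrc2 held 190.0, 204.6 and 195.4 FPKM after anti-miR-29a, 208.5, 246.7 and 240.2 FPKM after pre-miR-29a and 197.6, 195.2 and 211.7 FPKM after pre-miR-29b-1. It was called higher with pre-miR-29a (log2 fold change 0.23, limma adjusted p 0.0141). That call ended without anti-miR-29a replicate 1, pre-miR-29a replicate 2 or pre-miR-29a replicate 3, at adjusted p of 0.0506, 0.0513 and 0.0511 (limma). Uqcrb passed the test in neither contrast.

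Cytochrome c, encoded by Cycs, held 654.8, 679.8 and 672.5 FPKM after anti-miR-29a, 671.8, 768.2 and 683.6 FPKM after pre-miR-29a, and 667.9, 632.3 and 661.7 FPKM after pre-miR-29b-1. The 95% interval of its log2 fold change was -0.17 to 0.10 after pre-miR-29b-1 and -0.056 to 0.21 after pre-miR-29a. Its 3 models lie on 2 scaffolds and share bases with models of other mouse genes, so its level is uncertain.

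Complex IV, cytochrome c oxidase, passes electrons to oxygen, and 8 of its nuclear subunits were tested. With pre-miR-29b-1, 2 were higher (Cox5b and Cox6a1) and 2 lower (Cox4i1 and Cox7b), and with pre-miR-29a, 2 were higher (Cox5a and Cox5b) and 0 lower. Of all tested genes, 25.8% were higher and 29.4% lower in the first contrast, and 27.5% and 30.9% in the second. The lower call of Cox7b (log2 fold change -0.21, limma adjusted p 0.0476) was lost without pre-miR-29a replicate 3 or any 1 library of the groups compared except anti-miR-29a replicate 1, with adjusted p of 0.0534 to 0.154 (limma). Cox5b, a peripheral subunit, rose in both contrasts. It held 862.7, 871.7 and 806.8 FPKM after anti-miR-29a, 1035.9, 1170.1 and 1057.4 FPKM after pre-miR-29a, and 1175.5, 1079.8 and 1039.6 FPKM after pre-miR-29b-1. The libraries did not overlap, and the log2 fold changes were 0.36 (SE 0.070, limma adjusted p 0.00148) and 0.37 (SE 0.070, limma adjusted p 0.0013). All 390 bases of its model are shared with the model of another mouse identifier at the same place, on JH000108 from 821989 to 823895, so its reads cannot be assigned to 1 of these identifiers with certainty.

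Cox5a, a matrix-side partner of Cox4i1, stood at 870 ± 27.7 FPKM after anti-miR-29a, 1130 ± 151 with pre-miR-29a and 969 ± 43.3 with pre-miR-29b-1 (SD, n = 3). Cox4i1, which holds a regulatory site for ATP, stood at 1538 ± 103, 1351 ± 149 and 1239 ± 30.7 FPKM in the same order. Cox7a2, a small subunit with the smallest mean change in the complex, held 1962.6, 2260.7 and 2110.1 FPKM after anti-miR-29a, 2045.1, 2530.4 and 1886.8 FPKM after pre-miR-29a, and 2064.6, 1863.3 and 2201.6 FPKM after pre-miR-29b-1. Its model is a single uninterrupted exon, and Cox7b has models on 2 scaffolds, so both may include reads from copies elsewhere in the genome. Cox6b1 passed the test in neither contrast, with log2 fold changes of 0.00022 and 0.092.

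Between the pre-miRs, 0 of 41 members differed, as did 1 of the 9504 tested genes, or 0.0105% (limma). At an unadjusted p under 0.05, 6 members and 1570 of all tested genes differed. For 39 of the 41 members, all but Cox6a1 and Cox8a, the difference had a 95% interval that stayed within 1.5-fold. The pre-miR groups had no overlap of their libraries for 4 members, or 9.76%, against 18.9% of all tested genes. For the 2 complex I genes lowered most, the difference of pre-miR-29b-1 from pre-miR-29a had intervals of -0.11 to 0.18 for Ndufv1 and -0.0038 to 0.27 for Ndufa6 on the log2 scale.

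The members with the smallest p between the pre-miRs were Cox6a1 and Uqcrc2. Cox6a1, a small subunit of the ubiquitous isoform, held 584.2, 495.2 and 420.2 FPKM after anti-miR-29a, 499.2, 455.1 and 411.3 FPKM after pre-miR-29a, and 809.8, 665.2 and 537.1 FPKM after pre-miR-29b-1. Replicate 1 was the highest and replicate 3 the lowest in each group. The difference between the pre-miRs was 0.54 (SE 0.155, limma adjusted p 0.22), and with array weights its adjusted p was 0.00521 (limma). With a term for the replicate number in the fit, its adjusted p was 0.0083 (limma). Its higher call of pre-miR-29b-1 over anti-miR-29a (log2 fold change 0.42, limma adjusted p 0.0428) came from groups whose libraries overlapped. It was lost without either of 2 pre-miR-29b-1 libraries, replicates 1 and 2 (adjusted p 0.154 and 0.0931, limma), without anti-miR-29a replicate 2 or 3 (0.0889 and 0.156, limma), and without pre-miR-29a replicate 2 (0.0573, limma). With the term for the replicate number, the adjusted p of this call was 0.000572 (limma). Uqcrc2 differed by -0.20 on the log2 scale (SE 0.068, limma adjusted p 0.233), lower with pre-miR-29b-1.

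The count between the pre-miRs turned on 1 library. Without pre-miR-29a replicate 1, 11 of 41 members were lower with pre-miR-29b-1 and 0 higher, where 7.87% of all 9500 genes tested without it were lower and 6.63% higher. Array weights, which gave that library the lowest weight of the 9, at 0.213, called 22 members, or 53.7%, and 38.2% of all tested genes. Pre-miR-29a replicates 2 and 3 had weights of 0.429 and 3.54, and pre-miR-29b-1 replicate 2 had 2.95. Weighted fits thus rested largely on 1 library for pre-miR-29a. In pre-miR-29a replicate 1, 5 of 41 members were above their group mean, and in replicate 2 of that group 40 of 41 were. The median deviation of the members from their group mean was -0.086 and 0.12 on the log2 scale in these libraries, while the median over all tested genes was -0.00073 and 0.0019. In the other 7 libraries the members' median deviation lay between -0.023 and 0.042. Leaving out pre-miR-29a replicate 2 gave 7 higher and 9 lower members against anti-miR-29a in place of 10 and 5, and leaving out replicate 1 gave 15 and 5. The part of these shifts in the results with pre-miR-29a was not tested further.

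The 41 members are abundant transcripts, all above the median of the tested genes, which was 38.2 FPKM, and 40 had a mean above 100 FPKM. Cox7a2, Cox7b, Cox6b1, Cox4i1 and Cox5b of complex IV, Uqcrh of complex III and Ndufa4 exceeded 1000 FPKM. Many are also very short, with coding lengths of 207 to 2181 bases and a median of 453, and this bears on their levels. In genes with 1 model, low FPKM values fell in whole reads when FPKM was multiplied by an effective length, that is, by the coding length less the stretch in which a fragment of 200 ± 80 bases cannot start. This held for 99.5% to 99.8% of values of up to 5.5 reads per library, with a tolerance of 0.1 reads, and for 47.6% to 53% with the coding length itself. In genes under 600 bases it held for 96% to 98.5%, from 101 to 146 values per library.

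On this scale a read in a short gene counts for more. The ratio of coding to effective length was 5.94 for Cox8a, with 207 coding bases, and 4.14 for Ndufa4, with 246, but 1.101 for Ndufs1, with 2181. Per kilobase of whole coding length, Ndufa4 averaged 542 in place of 2244 FPKM, Cox8a 47.2 in place of 281 FPKM, and Cox4i1 832 in place of 1376 FPKM. Cox4i1 then ranked first of the 41 members rather than the sixth. No member exceeded 1000 on that scale. The order of subunits by level therefore depends on the length used, while a ratio of the same gene between libraries does not, as far as 1 length per gene served all libraries.

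**Figure D4:**
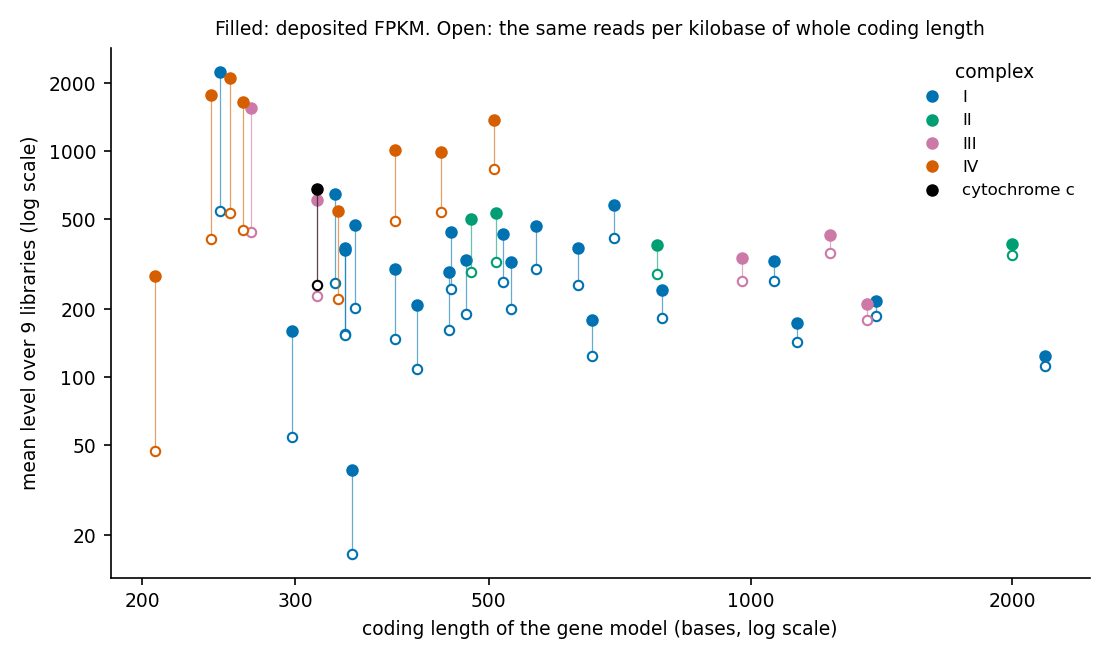
The mean level over 9 libraries is plotted against coding length for the 41 tested members, both on log axes; filled points are deposited FPKM and open points the same reads per kilobase of whole coding length, joined by a line for each gene. The gap between them widens toward the shortest genes, and the members above 1000 FPKM fall to 832 or less.

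Counting error was small beside the spread between libraries. Implied reads behind a member's value ran from 85, for Cox8a, to 14517, for Sdha. The median spread of members within groups was 0.097 on the log2 scale, close to the 0.093 of all tested genes, whereas counting alone would give a median of 0.029. The exception was Ndufs6, with a spread of 0.079 where counting gives 0.14. Cox8a, the shortest tested member, had the widest spread, 0.52, against 0.11 from counting. It held 325.2, 271.0 and 184.7 FPKM after anti-miR-29a, 305.0, 288.1 and 140.2 with pre-miR-29a, and 477.9, 252.2 and 282.5 with pre-miR-29b-1. The highest value in each group was replicate 1. Its 95% interval of pre-miR-29b-1 over anti-miR-29a ran from -0.39 to 1.1 on the log2 scale. That interval holds both no change and a rise of 1.5-fold. After pre-miR-29a it ran from -0.88 to 0.61, which holds a change of 1.5-fold in either direction.

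**Figure D5:**
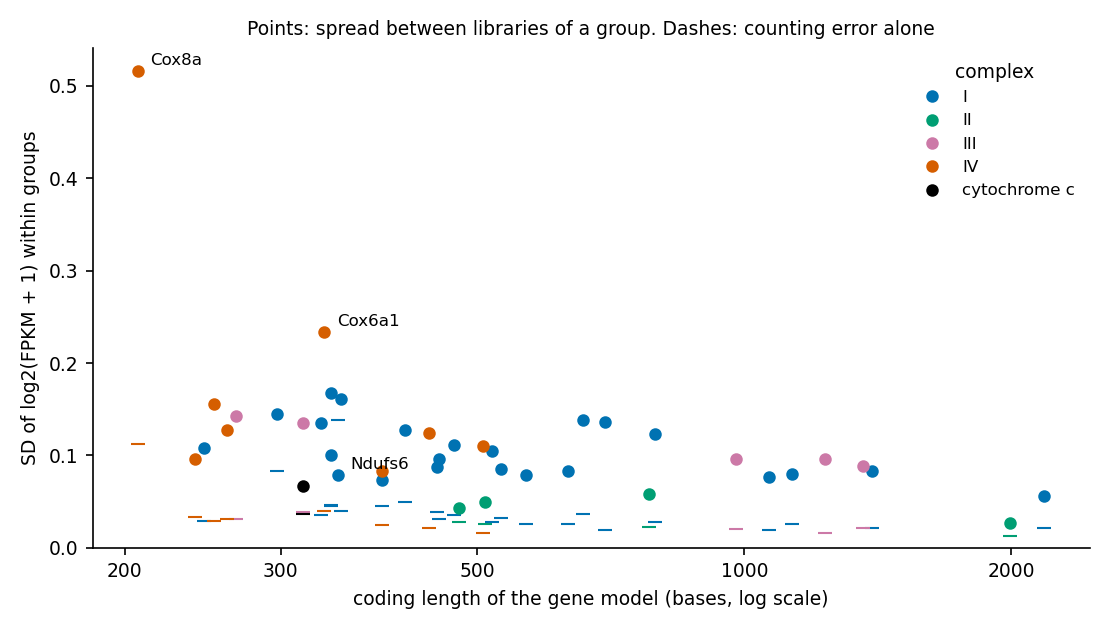
The SD of log2(FPKM + 1) between libraries of a group is plotted as points against coding length on a log axis, with dashes for the SD that counting error alone would give. Cox8a at 0.52 and Cox6a1 at 0.23 stand above the other members, and points lie above their dashes for every member but Ndufs6.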

How the data were processed

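Single reads of poly(A) mRNA libraries, made from 2 µg of RNA each, were processed by the submitters with FastQC, TopHat2 2.0.13 and Cuffnorm, per the submitters' processing notes. The values are FPKM per gene and library as deposited by the authors. The sources used here name no Cuffnorm version, library scaling, strand setting or filter. Per the file headers, the models are alignments of mouse Ensembl proteins (release 66) to the CriGri_1.0 assembly. The files give identifiers without names, and symbols came with the list of members. One listed gene is not reported here, and counts of members leave it out. Other genes of the pathway, mitochondrially encoded subunits included, could not be named from the files and were not used here.

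Values were taken as log2(FPKM + 1) for the 9504 genes averaging 1 FPKM or more. All 9 libraries entered one limma fit (version 3.58.1, R 4.3.3) with a term per group and a variance trend. Fold changes are on that scale. Adjustment (Benjamini-Hochberg, two-sided p) ran over all tested genes, at a threshold of 0.05. Implied depth was 15887000 to 21863000 reads per library, from whole-read steps in low values, and counting error alone is covered by it. The effective length model was chosen after its fit to those steps was seen. The fit was tested on simulated data. Members and lists were chosen with earlier results of these data known. Genes named with a value per library are, per complex, up to 3 with the largest rise and fall called in both contrasts with anti-miR-29a and the one with the smallest mean change, complex II, Cyc1, Cycs, and the 2 with the smallest p between the pre-miRs. Cox8a was added after its values were seen. Alternatives changed the pseudocount, filter, scaling, variance model, weights, libraries and genes in the fit, added the replicate block, and omitted single libraries in turn.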

Additional observations from a re-analysis of the deposited data

How the results depend on the processing

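Ndufv1, Ndufv2, Ndufa6 and Sdha were lower in both contrasts with anti-miR-29a, and Ndufa4 and Cox5b higher, as reported and in every alternative that tested them. The highest adjusted p of Ndufv1 and Ndufa6 was 0.000466, for Ndufv1 after pre-miR-29b-1 with ordinary variances (t-test without variance moderation). No named gene with a call reversed its direction.

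For pre-miR-29b-1 relative to anti-miR-29a, 16 members were called, 6 higher and 10 lower. Quantile normalization gave 11 higher and 8 lower, ordinary variances 3 higher, and genes with 1 model and no shared bases 10 in all with 6 lower, where 27 members remained. Of all tested genes, quantile normalization called 33.4% higher and 26.0% lower, and ordinary variances 23.2% higher. Of the genes with 1 model and no shared bases, 57.3% were called and 30.2% were lower. Leaving out 1 library gave 11 to 17 members in all, 3 to 7 higher and 8 to 10 lower. Of all tested genes it called 47.35% to 60.4%, with 21.5% to 28.4% higher and 25.7% to 32.0% lower. With pre-miR-29a, 15 were called, 10 higher and 5 lower, array weights gave 23 in all with 9 lower, and leaving out 1 library gave 12 to 20 in all, 7 to 15 higher and 5 to 9 lower. Between the pre-miRs, 0 members were called. Array weights gave 22 (6 higher and 16 lower), where 18.6% of all tested genes were higher and 19.6% lower. The replicate block gave 1 higher (Cox6a1, adjusted p 0.0083, limma), where 1.77% of all tested genes were higher and 0.168% lower. Leaving out 1 library gave 0 to 11 members, with 0 higher and 0 to 11 lower. Of all tested genes it called up to 14.5%, with up to 6.63% higher and 7.87% lower. Apart from the smaller number of members tested, the cause of the changed member counts was not tested. Libraries of the same number deviated together with r of -0.02 to 0.29, over 0.1 in 6 of 9 pairs. Between libraries of different numbers in different groups, r was -0.28 to 0.09. Whether the numbers mark a shared batch was not tested. The main fit did not pair the libraries by number, and the replicate block did. Under that block Ndufb10 was no longer called with pre-miR-29b-1 (adjusted p 0.0528, limma), Cyc1 was called with pre-miR-29a (adjusted p 0.0435, limma), and the higher call of Cox6a1 after pre-miR-29b-1 had an adjusted p of 0.000572 (limma). Ndufb10 and Cox6a1 with pre-miR-29b-1 also lost their calls with no filter (adjusted p 0.0539 and 0.0843, limma) and with ordinary variances (0.0693 and 0.116), and Cox6a1 with no variance trend (0.0539) and with only the groups compared (0.0643). The low count of 3 higher members arose without pre-miR-29b-1 replicate 1 or anti-miR-29a replicate 3, and the 11 lower between the pre-miRs without pre-miR-29a replicate 1. Ndufs6 after pre-miR-29b-1 kept its call in 14 of 21 fits, Uqcrh in 14 and Cox7b in 12.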
